A study of Mus musculus with 3 samples.

Results

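Timp1, Timp2, Timp3, Plat, Plau, Plaur, Serpinf1 and Mmp11 are 8 mouse genes of matrix proteolysis and its control, and all probe sets annotated to them were taken. These came to 8 probe sets of 12588 that are not array controls. They read 7 of the 8 genes, of 8220 genes named on the array in all, since no probe set is annotated to Timp3. Timp1, Plat and Serpinf1 were picked because they read lower on the antisense-labelled array than on both controls, so their differences from the controls are given as a description, without a test. The other members were added as their relatives. The cells were LNC, a malignant B-1 cell line from a lymph node of a 1-year-old New Zealand Black (NZB) mouse. The antisense-labelled array held total RNA of LNC cells given an antisense oligonucleotide against IL-10 at 20 µM, the scrambled array that of cells given a scrambled oligonucleotide at 20 µM, and the untreated array that of cells given neither. RNA was taken at 24 h. All 3 arrays share the 1 cell line and strain, and the labels do not say whether the RNA of an array came from a single culture.

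Plat and Plau encode the tissue-type and urokinase-type plasminogen activators, which cut plasminogen to plasmin, a protease that dissolves fibrin and matrix. Urokinase acts on the cell surface through the receptor encoded by Plaur. Matrix metalloproteinases cut collagens and other matrix proteins and are held in check by the Timp proteins, the tissue inhibitors of metalloproteinases. In human monocytes, IL-10 is known to raise TIMP1 production. Tumour cells of several kinds are known to use these proteases to pass through tissue.

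No promoter window was available for Plat, also picked for reading lower, or for Plau. Promoter windows of Timp1 and Serpinf1, which read lower on the antisense-labelled array, and of Mmp11, which did not, are shown so that the letters before their start sites can be compared. Each holds the 250 bases before the annotated start, from RefSeq on GRCm38.p6, with motif matches in capitals. The Timp1 window is chrX:20869916-20870165 on the plus strand, that of Serpinf1 chr11:75422624-75422873 on the minus strand and that of Mmp11 chr10:75932503-75932752 on the minus strand.
Timp1: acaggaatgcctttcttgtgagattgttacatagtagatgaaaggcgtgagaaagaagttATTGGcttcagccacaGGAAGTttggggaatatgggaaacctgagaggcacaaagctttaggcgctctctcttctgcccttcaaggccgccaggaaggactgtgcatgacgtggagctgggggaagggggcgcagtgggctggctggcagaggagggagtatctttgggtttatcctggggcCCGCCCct
Serpinf1: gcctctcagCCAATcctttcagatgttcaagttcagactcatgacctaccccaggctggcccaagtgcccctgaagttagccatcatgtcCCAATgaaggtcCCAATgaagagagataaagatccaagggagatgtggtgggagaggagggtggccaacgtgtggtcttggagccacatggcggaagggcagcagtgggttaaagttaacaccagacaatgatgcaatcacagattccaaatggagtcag
Mmp11: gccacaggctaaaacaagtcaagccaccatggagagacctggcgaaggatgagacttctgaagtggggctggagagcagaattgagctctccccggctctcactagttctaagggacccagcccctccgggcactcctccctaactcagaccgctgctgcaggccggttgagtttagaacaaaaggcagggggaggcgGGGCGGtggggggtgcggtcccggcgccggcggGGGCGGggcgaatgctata

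The 6 motifs searched on both strands were the AP-1 site TGANTCA, the cyclic AMP response element TGACGTCA, the GC box GGGCGG, the CCAAT box CCAAT, the TATA box TATAAA and the Ets core GGAAGT. The Timp1 window held a CCAAT box on the minus strand beginning 190 bases before the start, an Ets core at 174 bases and a GC box on the minus strand at 8 bases. The Serpinf1 window held 3 CCAAT boxes, at 241, 160 and 148 bases before the start, and no GC box. The Mmp11 window held 2 GC boxes, at 52 and 19 bases, and no CCAAT box. Among 32851 RefSeq windows of the same length, 33.8% held a CCAAT box, 32.7% a GC box, 19.7% the Ets core, 12.4% the TATA box, 6.75% the AP-1 site and 1.55% the cyclic AMP response element. None of the 3 printed windows held these letters of the AP-1 site, the cyclic AMP response element or the TATA box. The Timp2 window, not printed, also held a CCAAT box, at 162 bases before the start, and a GC box at 37 bases. Those of Plaur and Timp3, also not printed, held GC boxes and no CCAAT box, and the Plaur window held an AP-1 site. The share of G and C was 54.4% in the Timp1 window, 51.6% in that of Serpinf1 and 63.2% in that of Mmp11, against a median of 52.4% over all windows.

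Values are probe set intensities on a linear scale, scaled to a common level, and a noise floor was set at 595.9, which is 2 robust standard deviations of the values below 0. Above this floor lay 42.1% of probe sets on the antisense-labelled array, 42.6% on the scrambled array and 42.0% on that of untreated cells. Il10, the targeted gene, read higher on the antisense-labelled array, at 2.48-fold over scrambled and 2.70-fold over untreated, and a second Il10 probe set read 1.60-fold and 1.87-fold. This goes against a loss of the targeted RNA, so each direction below rests on the label. The 3-prime over 5-prime signal of 18S ribosomal RNA was 8.13 on the antisense-labelled array, 4.48 on the scrambled array and 1.72 on that of untreated cells. The 5-prime reading in it was 640, 2435 and 4465 in the same order. The first of these is little above the floor, so the ratio of 8.13 is imprecise. The same ratio for 2 messenger RNAs stayed near 1. In the same order of arrays it was 0.96, 0.99 and 0.92 for actin and 0.93, 1.00 and 1.01 for Gapdh. The 6 bacterial spike-in probe sets of moderate brightness had a mean log2 difference of -0.51 for the antisense-labelled array against scrambled and -0.63 against untreated. The part of the 18S signal in the differences below was not tested, and values with scaling to the spike-in controls are given for Timp1, Plat, Serpinf1, Mmp11 and some genes of the lists beside them. Each group has 1 array, so differences have no check by replicates and no test could be made. To judge error, each difference was set beside a yardstick: 95% of the 300 probe sets of nearest mean level differed by less than this between the 2 control arrays. It contains any effect of the scrambled oligonucleotide.

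**Figure D1:**
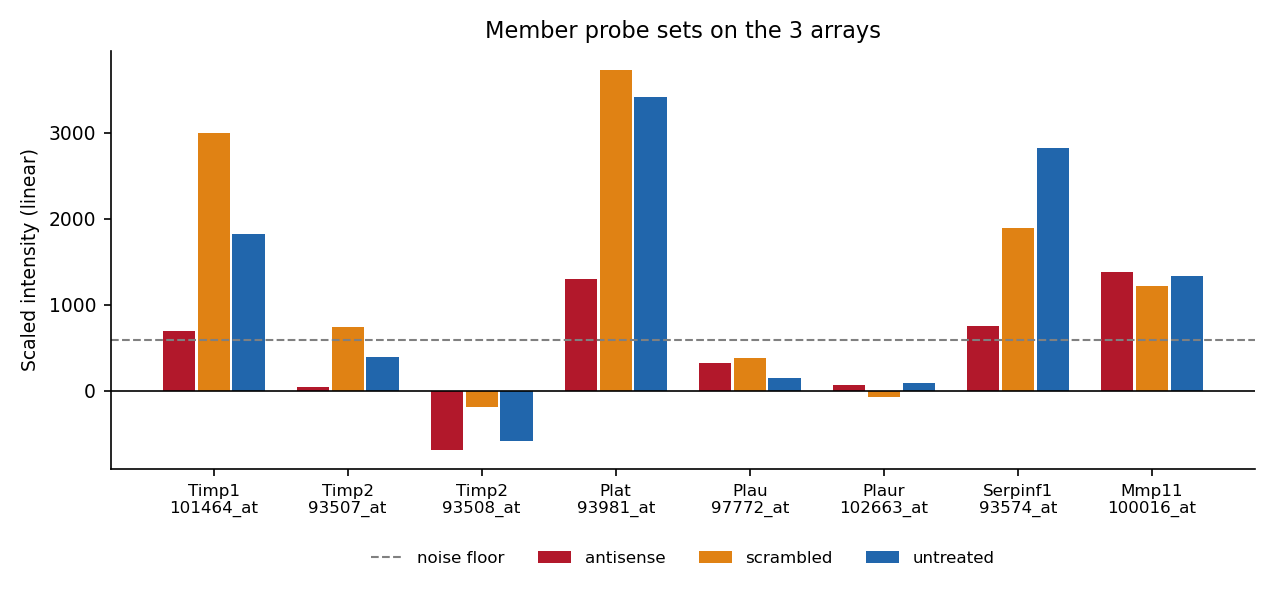
Scaled intensity on a linear axis of the 8 member probe sets, 1 bar per array, with the noise floor of 595.9 as a dashed line. Timp1, Plat and Serpinf1 have their lowest bar on the antisense-labelled array, Mmp11 has 3 bars of like height, and Plau, Plaur and the second Timp2 probe set stay below the floor.

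Timp1 encodes a secreted inhibitor that binds the active site of most matrix metalloproteinases. Its probe set, 101464_at, read 700.0 on the antisense-labelled array, against 3001 on the scrambled array and 1826 on that of untreated cells. The reading on the antisense-labelled array lay 2.35 robust standard deviations above 0, little above the floor, while both controls stood well clear of it. The log2 difference was -2.10 against scrambled, a 4.29-fold lower reading, and -1.38 against untreated, a 2.61-fold lower reading. Both exceeded the yardstick of 1.06 at this level. Among the 6127 probe sets past the filter, Timp1 ranked 5 from the lowest against scrambled and 47 from the lowest against untreated. Timp1, Plat and Serpinf1 were picked by these differences. Their ranks and their passing of the yardstick therefore describe them, and nothing more is read from either.

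Timp2 encodes an inhibitor that also takes part, with the membrane protease Mmp14, in activating the gelatinase Mmp2. Of its 2 probe sets, 93507_at read 46.5 on the antisense-labelled array, against 743 on the scrambled array and 399 on that of untreated cells. Only the scrambled value lay above the floor, so the probe set passed the filter through that 1 array. Scrambled was at least 1.25-fold above the antisense-labelled array and the untreated array, a log2 difference of -0.32 for antisense minus scrambled that lay within the yardstick of 0.40, which is small there because values are set to the floor. The second probe set, 93508_at, read -687 on the antisense-labelled array, -188 on the scrambled array and -578 on that of untreated cells, and no fold can be given for it. Over both probe sets, 5 of the 6 readings were below the floor, and values there have no order. Timp2 is the member nearest to the choice that fell outside it.

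Mmp11 encodes stromelysin-3, a metalloproteinase that is made in active form inside the cell. Its probe set, 100016_at, read 1382 on the antisense-labelled array, against 1223 on the scrambled array and 1339 on that of untreated cells. All 3 values lay 4.11 to 4.64 robust standard deviations above 0, so the gene was measurable on each array. The log2 difference was 0.18 against scrambled and 0.05 against untreated, both within the yardstick of 1.08. At this level a difference under 2.11-fold could not be told from the scatter between the controls. With scaling to the spike-in controls, the Mmp11 differences were 0.69 and 0.68, near the common shift of 0.51 and 0.63 that this scaling adds to every probe set above the floor.

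Plat encodes tissue-type plasminogen activator, the protease that starts clot lysis and also acts in brain and stroma. Its probe set, 93981_at, read 1306 on the antisense-labelled array, against 3733 on the scrambled array and 3414 on that of untreated cells. The controls lay close together, and the lower reading stood 4.38 robust standard deviations above 0, clear of the floor. The log2 difference was -1.51 against scrambled, a 2.86-fold lower reading, and -1.39 against untreated, a 2.61-fold lower reading. Both exceeded the yardstick of 0.75, which corresponds to 1.68-fold. Plat ranked 36 from the lowest against scrambled and 46 from the lowest against untreated.

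Plau encodes urokinase, the other plasminogen activator. Its probe set, 97772_at, read 325 on the antisense-labelled array, against 388 on the scrambled array and 156 on that of untreated cells. Plaur encodes the urokinase receptor, a protein held to the cell surface by a lipid anchor. Its probe set, 102663_at, read 64.4 on the antisense-labelled array, against -67.5 on the scrambled array and 87.6 on that of untreated cells. Neither gene was above the floor on any array, so the urokinase arm was not detectable here on these probe sets and has no fold, while the tissue-type activator was measured on each array.

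Serpinf1 encodes pigment epithelium-derived factor, a secreted serpin that does not inhibit proteases and is known for restraining vessel growth. Its probe set, 93574_at, read 754 on the antisense-labelled array, against 1893 on the scrambled array and 2820.5 on that of untreated cells. The lower reading was close to the floor, at 2.53 robust standard deviations above 0. The log2 difference was -1.33 against scrambled, a 2.51-fold lower reading, and -1.90 against untreated, a 3.74-fold lower reading. Both exceeded the yardstick of 1.02. Serpinf1 ranked 71 from the lowest against scrambled and 9 from the lowest against untreated.

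The comparison of the scrambled with the untreated array was not used in the choice of the members. Here Timp1 read 1.64-fold higher on the scrambled array, a log2 difference of 0.72, and Serpinf1 went the other way, with a log2 difference of -0.58. Plat differed by 0.13 and Mmp11 by -0.13. Each of these lay within its yardstick, which was itself drawn from these 2 arrays. Of all probe sets past the filter, 95.7% had a lower difference than Timp1 and 6.28% a lower one than Serpinf1. The 3 chosen genes share the array with the lowest reading by the rule of their choice. Timp1 read highest on the scrambled array and Serpinf1 on the untreated array, while Plat read nearly alike on both. Since these differences lay within the yardsticks, no order of the controls is read from them.

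**Figure D2:**
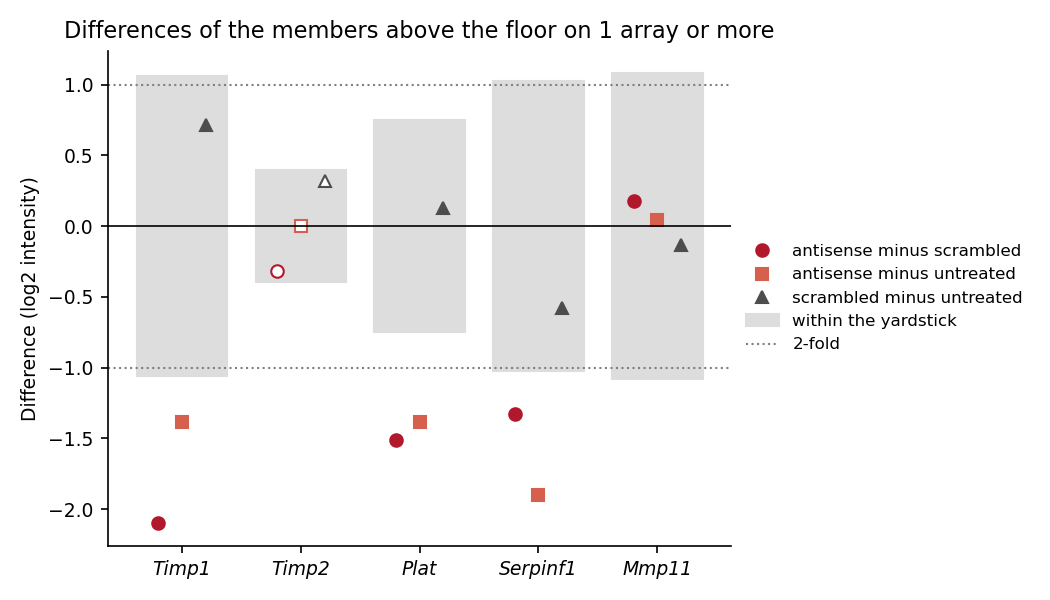
Log2 intensity differences of the 5 member probe sets past the filter in the 3 comparisons, with open symbols where a value is at the floor on at least 1 of the arrays. Grey bands show the yardstick at each level and dotted lines mark 2-fold. Timp1, Plat and Serpinf1 lie below the band in both comparisons of the antisense-labelled array, which were used to pick them, and inside it between the controls.

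Of the 8 member probe sets, 5 passed the filter, 4 of them above the floor on each array, and 3 did not pass. At least 2-fold lower readings on the antisense-labelled array than on both controls were found for 3 of the 5, which are the 3 picked for this, against 1.06% of the 6127 probe sets past the filter. Against scrambled alone 2.82% of all probe sets were at least 2-fold lower and 6.02% at least 2-fold apart, and against untreated alone 2.2% were lower and 4.85% apart. Since these comparisons chose the members, nothing is read from the count. No member was at least 2-fold higher than both controls, where the share over all probe sets was 1.35%. Between scrambled and untreated, 0 of the 5 were at least 2-fold apart, against 3.1% of all probe sets. With scaling to the spike-in controls, Timp1 differed by -1.59 against scrambled and -0.75 against untreated, Plat by -1.002 and -0.76 and Serpinf1 by -0.81 and -1.27, so the direction of all 3 held and none was 2-fold lower than both. Over all probe sets, the share of 2-fold differences that were higher was 53.1% against scrambled and 54.5% against untreated, and 91.8% and 96.2% with that scaling. Between scrambled and untreated it was 54.7%, and 71.2% with that scaling.

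**Figure D3:**
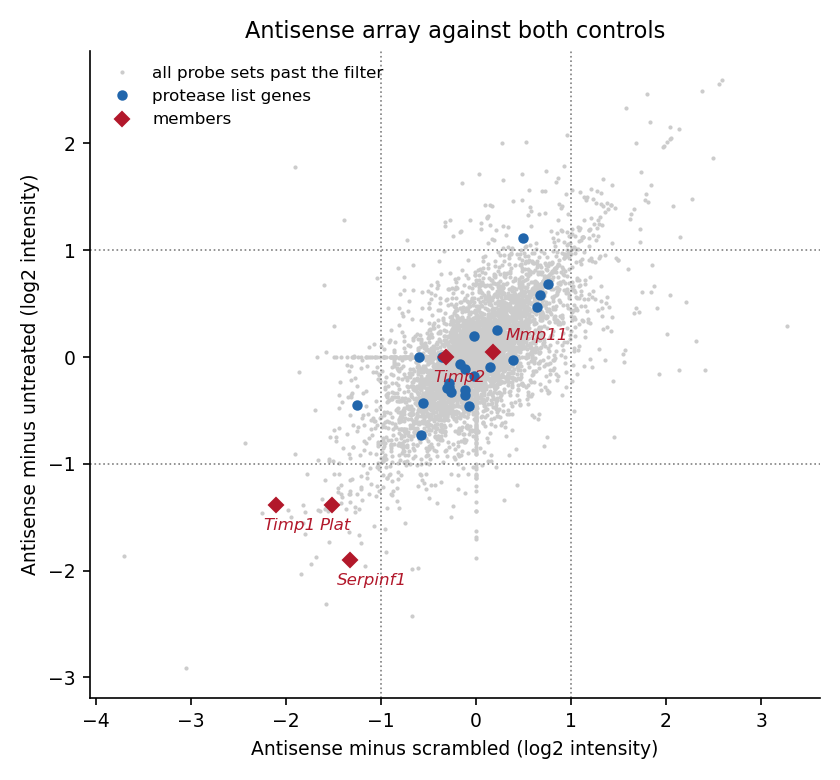
Log2 difference of the antisense-labelled array from scrambled (horizontal) and from untreated (vertical) for the 6127 probe sets past the filter, with the other protease genes in blue and the members in red. Both axes share the antisense-labelled array, so points can spread along the diagonal for that reason. Timp1, Plat and Serpinf1 lie below -1 on both axes, Timp2 and Mmp11 near 0, and no other protease gene lies below -1 on both.

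The genes whose readings were most like those of the 3 chosen ones were found by the smallest distance between their pairs of log2 differences from the controls, among 3517 genes above the floor on the 3 arrays. Nearest to Timp1 were Necap2, at a distance of 0.13, Pfkm, at 0.19, Pxn, at 0.47, Rasgrp2, at 0.48, and Gm16853, at 0.52. Nearest to Plat were 2610001J05Rik, Rasgrp2, Pxn, Arf5 and Plac8, at distances of 0.10 to 0.14. Nearest to Serpinf1 were Strn4, at 0.26, Cel, Hsd17b4, H2-Q5 and Chaf1a, at 0.50. Pxn, which encodes paxillin, an adaptor at focal adhesions, and Rasgrp2, an activator of the small GTPase Rap1, were near both Timp1 and Plat. These are likenesses over 3 arrays only, and both differences share the antisense-labelled array and were used to choose Timp1, Plat and Serpinf1. Several of the near genes read little above the floor on that array, among them Pxn at 626 and Rasgrp2 at 679. Others, such as Necap2 at 1387 and Arf5 at 1901, stood clear of it.

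A wider list of 80 genes of plasminogen, serpins, metalloproteinases, cathepsins and their matrix partners was examined beside the members. Of these, 61 were on the array, 24 passed the filter, and 18 of these read above the floor on every array. None of the 24 was at least 2-fold lower, and none 2-fold higher, on the antisense-labelled array than on both controls, against 0.991% lower and 1.25% higher among 4643 genes read by their brightest probe set. Without regard to size, 13 of the 24, or 54.2%, read lower than both controls and 5, or 20.8%, higher than both, where the shares over the 4643 genes were 31.6% and 37.4%. This split turned with scaling to the spike-in controls, under which 1 of the 24, Ctsh, was lower than both and 17 were higher, against 5.04% and 79.4% of all genes. The median difference was -0.11 for antisense minus scrambled, -0.10 for antisense minus untreated and 0.01 for scrambled minus untreated, where that over all genes was 0.00. Against scrambled 1 of the 24 was at least 2-fold apart, against untreated 1, and between the controls 0. The shares over all genes were 5.94%, 4.78% and 3.06% in the same order.

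Among the plasminogen genes, 4 of 11 passed the filter. Lrp1 encodes a large endocytic receptor that clears plasminogen activators bound to their inhibitors. It read 1189 on the antisense-labelled array, against 2837 on the scrambled array and 1618 on that of untreated cells, with log2 differences of -1.25 and -0.44. The first exceeded its yardstick of 1.04 and the second did not, and like Timp1 the gene had its highest reading on the scrambled array. With scaling to the spike-in controls the Lrp1 differences were -0.74 and 0.19, so it was then not 2-fold lower than scrambled and not lower than untreated. S100a10, a cell-surface plasminogen receptor subunit, read 5316, against 6554 on the scrambled array and 6477 on that of untreated cells, within its yardstick of 0.46. Plgrkt, a plasminogen receptor, read 2419, against 2950 and 2930 in the same order, differences of -0.29 and -0.28 that were within the yardstick of 0.75. Anxa2, the partner of S100a10, and Plg, plasminogen itself, were below the floor on the 3 arrays.

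Of 11 serpins on the array 3 passed, and only Serpinc1, antithrombin, was above the floor on each, with 1442 on the antisense-labelled array, 2124 on the scrambled array and 1943 on that of untreated cells. Its log2 differences of -0.56 and -0.43 lay within the yardstick of 0.87. Serpinf2, the plasmin inhibitor whose gene lies next to Serpinf1, read -99.1, -628 and -619, all below 0. Of 11 other metalloproteinases of the Mmp family, 1 passed, Mmp14. This membrane-bound collagenase read 424 on the antisense-labelled array, 604 on the scrambled array and 674 on that of untreated cells. The first was below the floor and the others were barely above it. The gelatinase genes Mmp2 and Mmp9 were below the floor on the 3 arrays. Mmp11 was thus the Mmp gene read above the floor on each array, of those measured here.

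Of 7 Adam and Adamts genes 3 passed, and Adam10, a sheddase of membrane proteins, read 1305 on the antisense-labelled array, 1376 on the scrambled array and 1792 on that of untreated cells. A second Adam10 probe set was below the floor. Among the other inhibitors, Cst3, the secreted cathepsin inhibitor cystatin C, read 19004.5 on the antisense-labelled array, 20616 on the scrambled array and 20478 on that of untreated cells, differences of -0.12 and -0.11 within the yardstick of 0.34. Of 9 cathepsins, the proteases of the lysosome, 7 passed. Ctss, which trims the invariant chain in B cells, read 13343 on the antisense-labelled array, 12034 on the scrambled array and 14246 on that of untreated cells. Bsg, or basigin, an inducer of metalloproteinases, differed by -0.17 and -0.06. These well-measured genes lay within the scatter between the controls.

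A few more genes of the list were singled out after their values were seen. Ctsh, a cathepsin with aminopeptidase activity, read 4844 on the antisense-labelled array, against 7245 on the scrambled array and 8042 on that of untreated cells. Its log2 differences of -0.58 and -0.73 both exceeded the yardstick of 0.42, and it was the 1 gene of the list to do so against each control. With scaling to the spike-in controls its differences were -0.07 and -0.10, inside that yardstick. Ctsd, an aspartic protease of the lysosome, read 4379, against 2750 on the scrambled array and 2935 on that of untreated cells, which exceeded the yardstick of 0.66 against scrambled at 0.67 but not against untreated at 0.58. Ctsk read 1288 on the antisense-labelled array, against 916 on the scrambled array and 413, below the floor, on the untreated array, at least 2.16-fold higher than untreated. Its difference of 1.11 lay within the yardstick of 1.20. The spike-in scaling moved Ctsd to 1.18 against scrambled and 1.21 against untreated, and Ctsk to 1.004 and 1.47.

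**Figure D4:**
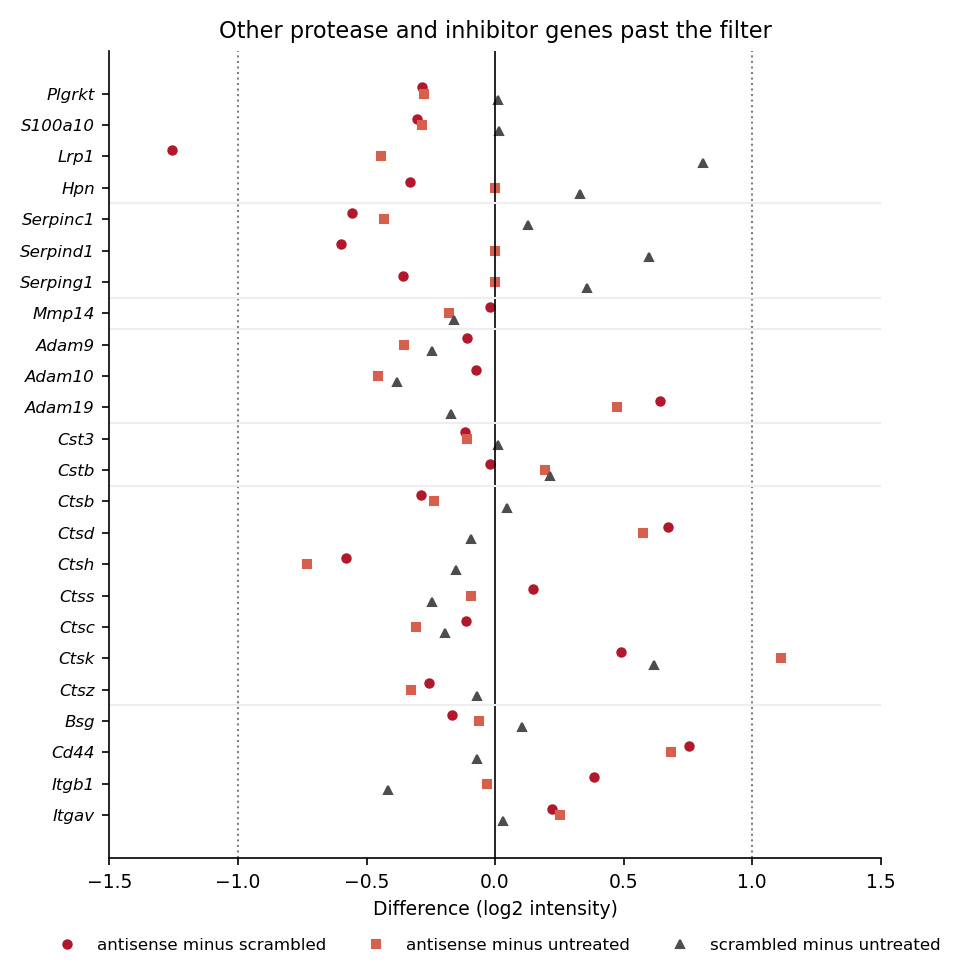
Log2 intensity differences of the 24 genes of the wider list past the filter, grouped by role from plasminogen genes at the top to matrix partners at the bottom, with 1 symbol per comparison and dotted lines at 2-fold. Lrp1 lies beyond 2-fold against scrambled and Ctsk against untreated, and the other 22 genes lie within 2-fold in each comparison.

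Several of the members are known chiefly from stromal and myeloid cells, so markers were read beside them. Of 14 B lineage markers on the array 10 passed, and 7 of the 10 read lower on the antisense-labelled array than both controls and 3 higher. Over the 4643 genes the shares were 31.6% lower and 37.4% higher. Those shares include genes at the floor on the antisense-labelled array and a control, which tie and count as neither. All 10 markers that passed lay above the floor on each array and could not tie in this way. The 14 markers summed to 309446 on the antisense-labelled array, 408113 on the scrambled array and 361376 on that of untreated cells. Ighm alone made 145519, 183787 and 155216 of this in the same order. Here and in the sums that follow, readings below 0 were taken as 0. Readings between 0 and the floor, which have no order, were included. Cd79a, a chain of the B cell receptor, read 21473 on the antisense-labelled array, 30469 on the scrambled array and 27790.1 on that of untreated cells. Its log2 differences of -0.50 and -0.37 exceeded the yardstick of 0.33. Spib, a transcription factor of B cells, differed by -0.97 against scrambled and -0.83 against untreated, beyond its yardstick of 0.35. Ms4a1, which encodes CD20, differed by -0.53 and -0.51, beyond its yardstick of 0.32. Cd74, the invariant chain of class II molecules, differed by -0.54 and -0.35, beyond its yardstick of 0.33. Ighm, at -0.34 and -0.09, exceeded its yardstick of 0.33 against scrambled only. Pax5 and Btk read lower within their yardsticks of 0.40 and 0.62. The 3 higher were Cd79b at 0.15 and 0.11, Blnk at 0.05 and 0.22, and Pou2af1 at 0.21 and 0.11, each within its yardstick. With scaling to the spike-in controls 1 of the 10, Spib, was lower than both controls, at -0.45 and -0.20, and 7 were higher. With that scaling 5.04% of all genes were lower than both controls and 79.4% higher. The part of these markers in the readings of the members was not tested. Cd5, the surface marker of B-1 cells, was below the floor on the 3 arrays. Of 10 fibroblast markers 2 passed, Col1a1 and Dcn, and the 10 summed to 2723 on the antisense-labelled array, 2079.5 on the scrambled array and 2045 on that of untreated cells. The 2 that passed made 1434, 1085 and 1212 of this in the same order, and the rest came from markers below the floor. The fibroblast markers Col1a2 and Sparc were below 0 on each array. Col1a1, a collagen chain, read 829 on the antisense-labelled array, against 1006 on the scrambled array and 996.5 on that of untreated cells. Dcn, which encodes decorin, read 605 on the antisense-labelled array, just above the floor, and was below it on both controls. Of 8 endothelial markers 2 passed, Kdr and Eng, and the 8 summed to 3394, 3354 and 2986 in the same order of arrays. Of 8 T cell markers 1 passed, Cd4, which read 1266 on the antisense-labelled array, 2339 on the scrambled array and 1349 on that of untreated cells, within its yardstick of 1.02. The 8 summed to 1900.0, 2886 and 1646.

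Of 9 macrophage markers 5 passed, of which 1, Cd14, read lower on the antisense-labelled array than both controls and 1, Cd68, higher. Over the 4643 genes the shares were 31.6% and 37.4%. The 9 markers summed to 6127 on the antisense-labelled array, 7059 on the scrambled array and 7404 on that of untreated cells. Lyz2, Itgam and Adgre1 were below 0 on each array. Csf1r, the receptor of macrophage colony-stimulating factor, read -102 on the antisense-labelled array, 460.4 on the scrambled array and 949 on that of untreated cells. Cd14 read 1088, 1563 and 2061, a log2 difference of -0.92 against untreated that was within the yardstick of 1.04. Cd68, a protein of lysosomes in macrophages, read 1331 on the antisense-labelled array, against 767.5 on the scrambled array and 854.5 on that of untreated cells, log2 differences of 0.79 and 0.64 within the yardstick of 1.15. Fcgr1, an Fc receptor, differed by -0.13 and 0.05, and Msr1, a scavenger receptor, by -0.10 and 0.20, within their yardsticks of 0.69 and 0.89. Each difference of the macrophage markers lay within its yardstick, so neither a common movement nor its absence is read from them. Their part in the reading of Serpinf1 was not tested. In bulk RNA, fewer cells of a type and less RNA per cell cannot be told apart.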

How the data were processed

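The deposited table gives linear intensity values for 12654 probe sets on 3 arrays, 66 of them controls. From the values, between 24.8% and 27.9% of an array were at or below 0 and the trimmed mean was 1500 on each, so the arrays had been scaled before deposit. The sources used here name no software. The arrays were brought to a common mean over the 12588 non-control probe sets, with 2% trimmed off each end. Values under the floor of 595.9 were raised to it before log2. Probe sets above the floor on at least 1 array were kept, which left 6127.

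Symbols came from the platform annotation, with 1 symbol for 10298 probe sets, several for 363 and none for 1949 non-controls. The gene identifiers of 10279 matched RefSeq. The brightest probe set stood for a gene of the lists. Differences of at least 2-fold were counted, and no test or p-value was possible with 1 array per group. The number of arrays limits the precision. The members and lists were chosen with earlier results of these data known. All member probe sets were described. Genes of the wider list were named if 2-fold apart in any comparison and above the floor on the 3 arrays, or if brightest in their subgroup. The 5 nearest genes were named by likeness. Other genes were named after their values were seen, as background, as markers or as neighbours on the chromosome. Promoter windows were RefSeq sequences of GRCm38.p6. Counting was tested on simulated data with less scatter than that between the 2 control arrays. This tries the counting steps and says nothing of the error of these arrays. Python 3.11.15, numpy 2.4.6, pandas 2.3.3 and matplotlib 3.10.9 were used.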

Additional observations from a re-analysis of the deposited data

How the results depend on the processing

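Timp1, Plat and Serpinf1, picked for reading below both controls, did so under each of the 7 alternatives for scaling, floor and probe set. Some of these could not move them. Their readings lie above the lower floors and each gene has 1 probe set. Nothing is therefore read from the number of settings under which the direction held. The log2 differences of these genes against scrambled ranged over -2.10 to -1.59 for Timp1, -1.52 to -1.002 for Plat and -1.33 to -0.81 for Serpinf1. Against untreated they ranged over -1.39 to -0.75, -1.42 to -0.76 and -1.90 to -1.27. The count of members 2-fold lower than both controls, 3 as reported, was 0 with scaling to the spike-in controls, where 1 member was 2-fold apart against untreated, because this scaling adds the common shift. Over all probe sets, the counts of 369 against scrambled and 297 against untreated became 828 and 1016 with that scaling. In the order antisense minus scrambled, antisense minus untreated and scrambled minus untreated, where 369, 297 and 190 were reported, they were 935, 769 and 615 with the floor at 1 robust standard deviation, 1567, 1357 and 1151 with the floor at the 40th percentile, 210, 157 and 92 with the floor at 3 robust standard deviations, 198, 160 and 95 for probe sets above the floor on the 3 arrays, and 1231, 1080 and 788 at 1.5-fold. Beyond the yardstick they were 681 and 549 against the controls. Between scrambled and untreated 1 member was apart with the floor at the 40th percentile, Plau, which is below the floor used, and 1 at 1.5-fold. The wider list, with 1, 1 and 0 genes apart in the same order, had 4 and 4 against the controls with spike-in scaling, 3 against scrambled and 3 between the controls with the floor at 1 robust standard deviation, 5, 5 and 3 with the floor at the 40th percentile, and 5, 3 and 3 at 1.5-fold. It had 0 against untreated with the floor at 3 robust standard deviations and 0 for genes above the floor on the 3 arrays, and 3 against scrambled beyond the yardstick. The cause of these moves was not tested beyond the change of floor, fold or filter itself. Timp2 moved most among the members, to -2.06 and -1.16 against the controls with the floor at the 40th percentile. Its readings on the antisense-labelled and untreated arrays lie below the floor used. No array could be left out and no paired analysis was possible because each group has 1 array.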

Other observations

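The nearest genes on either side of each member that have a probe set were read as well, in the gene order of RefSeq on GRCm38.p6. Kcnn4, a calcium-activated potassium channel gene on chromosome 7 with 2 genes between it and Plaur, read 664 on the antisense-labelled array, against 1529 on the scrambled array and 1432 on that of untreated cells, with log2 differences of -1.20 and -1.11. Both lay within its yardstick of 1.24, they were -0.69 and -0.48 with scaling to the spike-in controls, and it was singled out after its values were seen. Beside Plat, Ikbkb was below the floor on the 3 arrays and Ank1 differed by 0.24 and -0.18. Beside Timp1, Cfp was below the floor and Araf read 901 on the antisense-labelled array, 331 on the scrambled array and 803 on that of untreated cells. Beside Serpinf1, Rpa1 differed by 0.21 against scrambled and -0.48 against untreated, the latter beyond its yardstick of 0.395. Between scrambled and untreated Rpa1 differed by -0.69, also beyond it. Beside Mmp11, Smarcb1 differed by -0.70 against scrambled and -0.401 against untreated, both beyond its yardstick of 0.395. No value with scaling to the spike-in controls is given for Smarcb1. Chchd10, on the other side of Mmp11, differed by -0.22 and -0.12, within its yardstick of 0.33.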
